A study of Mus musculus with 6 samples.

Results

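Semaphorins are guidance ligands, and plexins and neuropilins are the receptors through which they act. The genes described here were all those whose symbol begins with Sema3 to Sema7 or Plxn, or is Nrp1 or Nrp2, measured by at least 1 probe set that names a single gene. The rule found 32 of the 18193 genes measured: 20 semaphorins, 9 plexins, 2 neuropilins and Plxna4os1, a transcript named for the strand opposite Plxna4, which matched by its name and is not a receptor. They were represented by 79 probe sets, and each gene is given by its probe set of highest mean level across all 6 arrays.

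RNA came from whole uterus of 8-week-old female mice with the floxed Gata2 allele (GATA2 f/f) on a mixed background. No recombinase is named in the labels, so both groups carry the floxed allele alone as far as they say. The mice lost their ovaries at 6 weeks of age. At 8 weeks 1 group received 1 mg of progesterone in 100 µl of sesame oil (3 arrays, progesterone) and the other received sesame oil (3 arrays, oil), and tissue was taken after 6 h. RNA is described as a pool of 3 mice, and whether each array held its own pool was not stated, so p-values measure the spread between these arrays, which may be partly technical. Values are log2 expression from RMA, and with 3 arrays a group small differences cannot be resolved.

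Class 3 semaphorins are secreted. Most of them bind a neuropilin, which holds the ligand while a plexin carries the signal into the cell, and Sema3e can bind plexin D1 without a neuropilin. Classes 4 to 7 are held at the cell membrane by a transmembrane segment or, for Sema7a, by a lipid anchor. Plexins act on small GTPases and on the actin and microtubule skeleton. Besides axon guidance, the family is known for roles in vessel patterning, epithelial branching and immune cell contact. Neuropilins also serve as co-receptors of vascular endothelial growth factors.

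All 3 smooth muscle, stromal and epithelial marker lists were well above background in every array, as whole uterus would have it: no gene of these lists averaged below 8.41, while the bacterial TrpnX controls on the array, taken here as background, reached 3.34. The array medians lay between 5.51 and 5.53. Oil replicate 3 carried the liver transcript Alb at 8.71, against 4.29 at most on the other arrays. Of the 3 measured genes of the liver list, Apoa1 was also highest on oil replicate 3 (6.82), but Ttr was not. Ttr was at 8.63, 8.67 and 8.38 after progesterone, against 5.61, 4.81 and 7.44 after oil. Its log2 change was 2.61 (limma adjusted p = 0.0334), which passed the threshold given below. The neutrophil transcript S100a8 stood above 11 on progesterone replicates 2 and 3 (12.02 and 12.48) and on oil replicate 3 (11.82), and was at or below 5.01 on the others. S100a9 followed it, but the granule genes Camp and Ngp, the other 2 measured genes of the neutrophil list, did not: they were high on progesterone replicate 2 (7.88 and 9.05), at 4.69 and 4.09 on progesterone replicate 3 and at 5.20 and 5.51 on oil replicate 3. The part of S100a8 in the results below was not tested, and values of the leading genes without these arrays are given in a later paragraph.

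After progesterone 4 of the 32 genes were lower and 0 were higher past the threshold, a Benjamini-Hochberg adjusted p under 0.05 over all genes in limma. The 4 were the secreted ligands Sema3e and Sema3b, the receptor Plxnb2 and the co-receptor Nrp2. Of all genes tested, 5.83% were called lower and 5.92% higher, so 12.5% of this family called in either direction stood close to the 11.7% of all genes. An unadjusted p under 0.05 was found for 8 of the 32 (25%), all 8 of them lower after progesterone, against 26% of all genes. The means were lower after progesterone in 22 of the 32 genes (68.8%), against 53.7% of all genes, and the median log2 change was -0.18, against -0.02 over all genes. In 10 genes all progesterone arrays lay below all oil arrays (31.2% of members, against 15.9% of all genes), and in 0 genes did they all lie above (14.5% of all genes). These 10 were Sema3a, Sema3b, Sema3e, Sema4c, Sema6a, Sema6d, Plxna1, Plxnb2, Plxnd1 and Nrp2. In a whole organ, fewer cells of a type and less RNA per cell cannot be told apart.

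**Figure D1:**
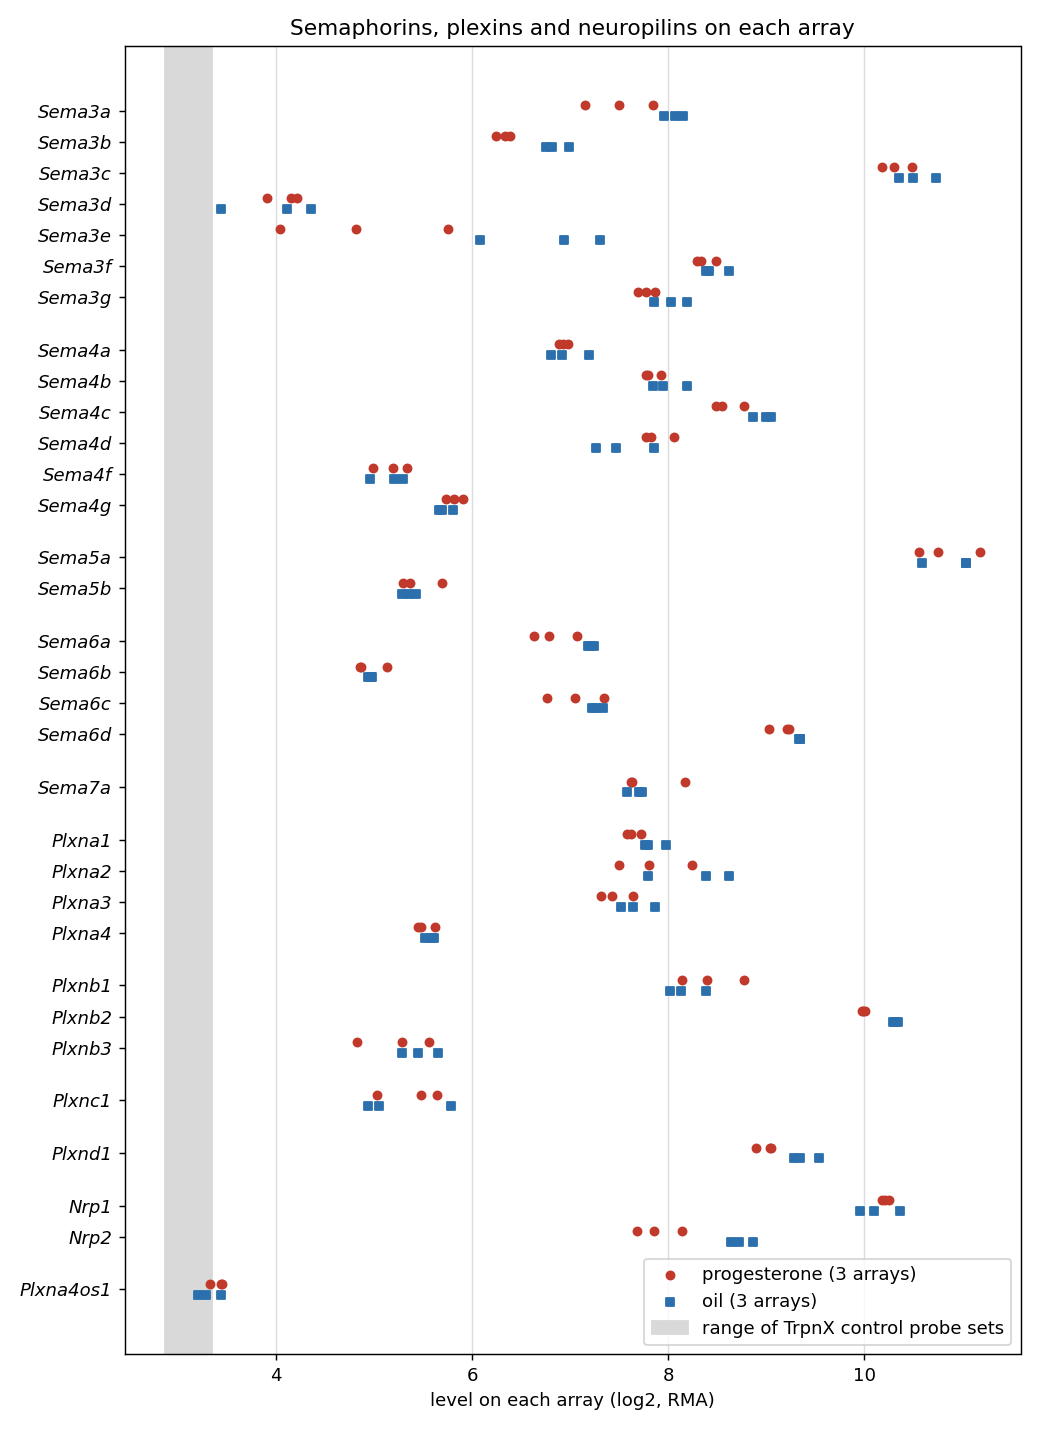
Levels of the 32 genes on each array, on a log2 scale from RMA, grouped by class. Each row shows 3 progesterone arrays (red circles) above 3 oil arrays (blue squares), and the grey band spans the TrpnX controls, 2.87 to 3.34. The circles of Sema3e spread from 4.04 to 5.75 and lie left of its squares, and only Plxna4os1 touches the band.

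The class 3 ligands held the largest difference. Sema3e was at 5.75, 4.81 and 4.04 on the progesterone arrays (log2, replicates 1 to 3), against 6.94, 7.30 and 6.08 on the oil arrays. The groups did not overlap, but this gene had the widest spread of all members within each group, with an SD of 0.856 after progesterone and 0.627 after oil (n = 3 each), beside a median member SD of 0.156 and 0.130. Its log2 change was -1.91 (SE 0.465, 3.75-fold lower, 95% interval -3.00 to -0.81, limma adjusted p = 0.0419). It passed in 2 of 6 fits that each dropped an array. The call ended without progesterone replicate 2 (adjusted p = 0.121) or 3 (0.0884) and without oil replicate 1 (0.127) or 2 (0.146), with a change between -2.35 and -1.49 in all 6 fits. Both arrays numbered 3 were the lowest of their group, and with the replicate number as a block the adjusted p was 0.00606. Sema3e averaged 4.87 after progesterone, below the array medians of 5.51 to 5.53. Its value of 4.04 was at the level of Sema3d (mean 4.09 after progesterone), so signal close to background limits the size of this change.

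The other probe sets of Sema3e also had lower means after progesterone. Of its 4 probe sets 3 passed when every probe set was tested on its own. A second probe set had 5.17, 4.51 and 5.05 after progesterone, against 6.45, 6.50 and 5.85 after oil (log2 change -1.36, SE 0.227, limma adjusted p = 0.0134). Another changed by -1.80 (adjusted p = 0.0281). The dimmest averaged 3.45 after progesterone and 3.84 after oil, close to the control probe sets, and did not pass.

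Plexin D1, the receptor that Sema3e binds directly and a gene of vascular endothelium, was also lower on every progesterone array. Plxnd1 was at 9.05, 9.04 and 8.90 after progesterone, against 9.35, 9.28 and 9.54 after oil. The difference of -0.39 on the log2 scale (SE 0.104, 1.31-fold lower) narrowly missed the threshold (limma adjusted p = 0.0537). It passed in several other settings, among them a second quantile normalization (adjusted p = 0.0408), an intensity trend in the variance (0.0388) and a filter on the lowest 50% of genes (0.0277). With the replicate number as a block it did not pass (0.0654), and in each of the 6 fits that dropped an array it stayed above the threshold (0.0849 to 0.137). It had no other probe set.

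The stretches upstream of the annotated start of this ligand and receptor, and of Nrp2, are shown because Sema3e and Nrp2 had the largest falls and Plxnd1 is the receptor that Sema3e binds. They are the 250 bases before the start from RefSeq on GRCm38.p6, 5′ to 3′ on the gene's strand, with the hexamer AGAACA in capitals.
Sema3e, chr5:14025026-14025275, strand +: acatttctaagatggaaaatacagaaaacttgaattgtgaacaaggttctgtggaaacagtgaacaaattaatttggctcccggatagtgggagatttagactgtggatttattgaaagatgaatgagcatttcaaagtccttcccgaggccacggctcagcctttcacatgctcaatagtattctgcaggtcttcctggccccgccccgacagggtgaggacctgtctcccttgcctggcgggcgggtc
Plxnd1, chr6:115995006-115995255, strand -: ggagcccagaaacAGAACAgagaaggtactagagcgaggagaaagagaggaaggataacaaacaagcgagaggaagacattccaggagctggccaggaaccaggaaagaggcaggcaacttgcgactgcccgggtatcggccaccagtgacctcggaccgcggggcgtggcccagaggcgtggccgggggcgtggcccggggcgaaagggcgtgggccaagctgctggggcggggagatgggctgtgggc
Nrp2, chr1:62703067-62703316, strand +: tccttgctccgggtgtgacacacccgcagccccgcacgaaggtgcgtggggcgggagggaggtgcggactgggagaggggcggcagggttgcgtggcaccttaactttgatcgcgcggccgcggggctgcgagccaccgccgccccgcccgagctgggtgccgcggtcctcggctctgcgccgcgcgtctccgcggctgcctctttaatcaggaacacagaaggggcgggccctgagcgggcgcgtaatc
Capitals occur in the Plxnd1 stretch alone, where AGAACA begins 237 bases before the start. AGAACA makes up each arm of the full inverted repeat that progesterone and glucocorticoid receptors recognise. Both strands of the 300-base windows around the start (250 before and 50 after) were searched, and 26 of the 32 genes had windows, 37 in all. The full repeat, with any 3 bases between its arms, was found in 0 of the 37 and in 3 of all 32851 windows (0.00913%). AGAACA was found in 8 of the 37 windows, those of Plxna3, Plxnd1, Sema4d, Sema6b and Sema6d, and in 19.0% of all windows. The GATA motif AGATAA was found in 0 of the 37 and in 11.2% of all windows. A match is a description of these letters alone. The Nrp2 stretch had 72.4% G and C and 32 CG pairs, Plxnd1 64.8% and 16, and Sema3e 48% and 7, beside medians of 52.4% and 6 over all windows.

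**Figure D2:**
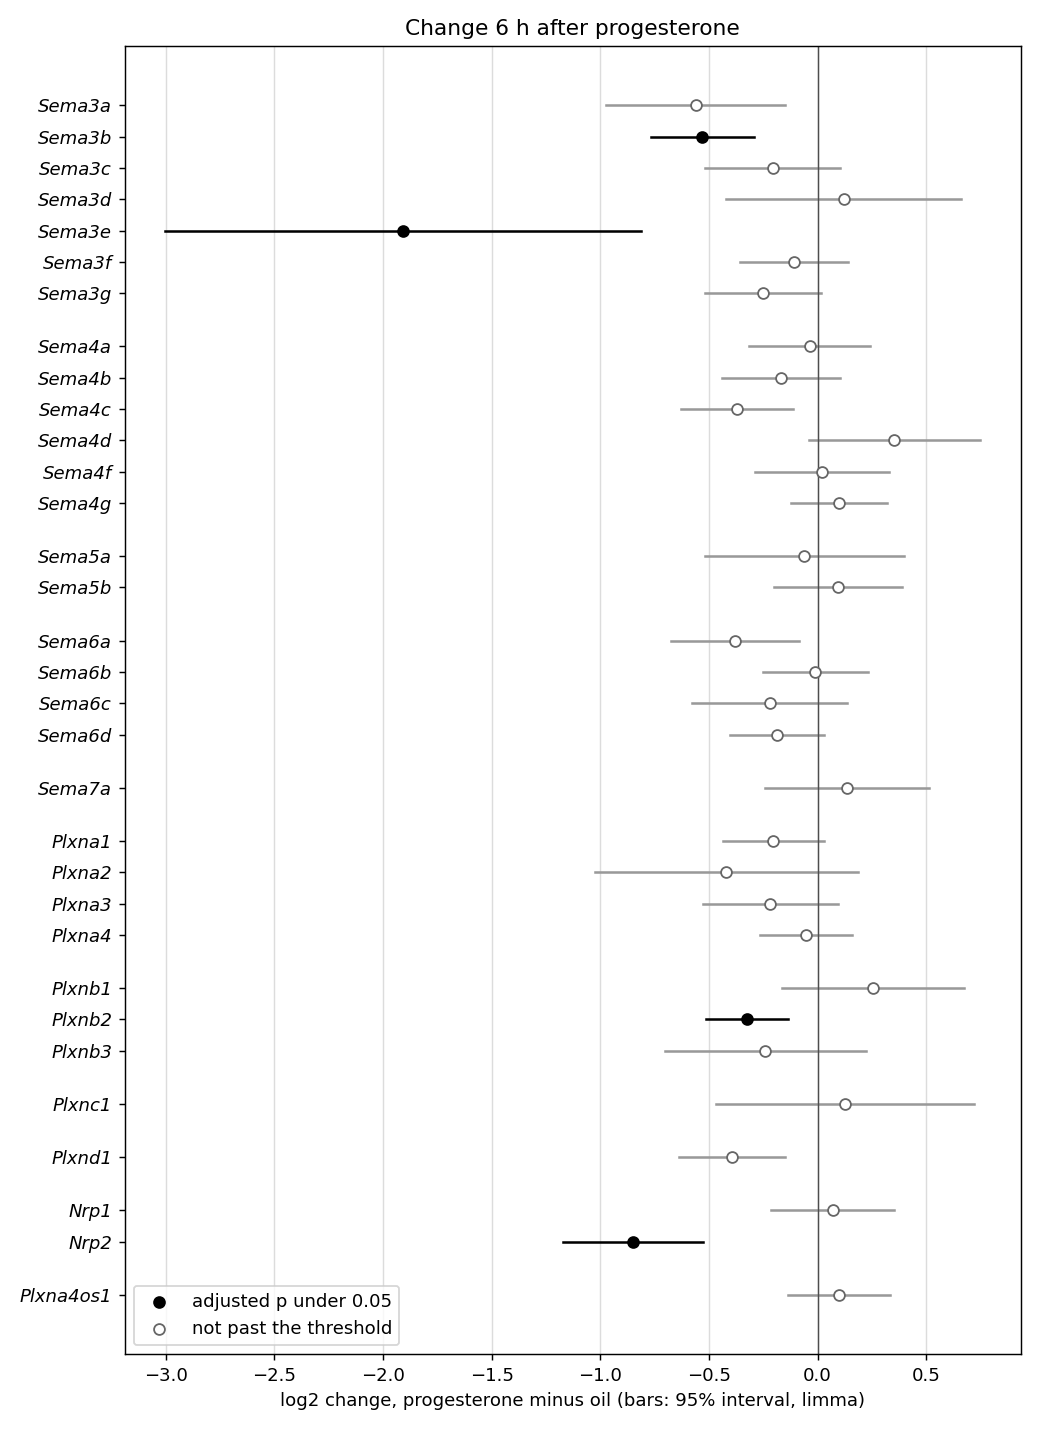
Log2 change of each gene, progesterone minus oil, with its 95% interval from limma, in the same order. Filled points passed an adjusted p of 0.05: Sema3b (-0.53), Sema3e (-1.91), Plxnb2 (-0.32) and Nrp2 (-0.85). The other 28 are open, and the highest of them is Sema4d at 0.35.

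Sema3b, which can bind either neuropilin and is known in human lung as a tumour suppressor gene, was at 6.39, 6.33 and 6.24 after progesterone, against 6.75, 6.99 and 6.81 after oil. The groups did not overlap, and the log2 change was -0.53 (SE 0.101, 1.44-fold lower, limma adjusted p = 0.0192). It passed in 3 of 6 fits that each dropped an array. The call ended without progesterone replicate 2 (adjusted p = 0.0624) or 3 (0.0543) and without oil replicate 2 (0.0757). Of its 3 probe sets it was the 1 used that passed. The others averaged 4.96 after progesterone and 5.15 after oil, and 4.35 after progesterone and 4.21 after oil, the last in the opposite direction, and over the mean of the 3 the change was -0.19 (adjusted p = 0.324).

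Sema3a, the founding repellent of the class, was at 7.85, 7.50 and 7.15 after progesterone, against 8.07, 8.15 and 7.96 after oil. The arrays lay apart, with a log2 change of -0.56 (SE 0.175) that did not pass (limma adjusted p = 0.0880) and that passed with the replicate block (0.0382). It also passed without progesterone replicate 1 (-0.735, adjusted p = 0.0289), while without progesterone replicate 3 the change was -0.385 (adjusted p = 0.155). Its 2 dimmer probe sets changed by -0.29 (adjusted p = 0.378) and 0.01 (0.985), and the mean of the 3 by -0.28 (0.271). Sema3c, a ligand of heart outflow tract development and the brightest probe set of the class, was at 10.30, 10.18 and 10.49 after progesterone, against 10.36, 10.50 and 10.73 after oil. Its groups overlapped (change -0.21, 95% interval -0.52 to 0.10). The second Sema3c probe set went the other way (0.26, limma adjusted p = 0.541), and the mean of its probe sets changed by 0.03. Sema3g, made by endothelium, changed by -0.25 and Sema3f, a Nrp2 ligand, by -0.11, with intervals that both include 0. Sema3d was near background, with a mean of 4.09 after progesterone and 3.97 after oil, and changed by 0.12. In the class as a whole 2 of 7 genes were called lower (28.6%, against 5.83% of all genes). Means were lower in 6 of 7 (85.7%, against 53.7% of all genes), and the median change was -0.25.

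None of the 13 membrane semaphorins passed in either direction in limma, against 11.7% of all genes. An unadjusted limma p under 0.05 was found for 2 of them, Sema4c and Sema6a (15.4%, against 26% of all genes). Whether they differ from the class 3 genes was not tested. In the class 4 genes 3 means were higher and 3 lower, with a median change of -0.01. Sema4c, a ligand of plexin B2, was at 8.77, 8.55 and 8.49 after progesterone, against 8.87, 9.05 and 9.0 after oil (change -0.37, SE 0.109, limma adjusted p = 0.0739). All its progesterone arrays were below all oil arrays, and without progesterone replicate 1 its adjusted p was 0.0482. Sema4d, the lymphocyte semaphorin CD100 and ligand of plexin B1, went the other way: it was at 7.77, 7.82 and 8.06 after progesterone, against 7.26, 7.47 and 7.86 after oil. Its highest oil array lay above 2 of the progesterone arrays, and the change of 0.35 had an interval of -0.04 to 0.75 (limma adjusted p = 0.241). Sema4a, Sema4b, Sema4f and Sema4g changed by -0.04, -0.17, 0.02 and 0.10.

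In class 5, whose members carry thrombospondin repeats, Sema5a was at 11.18, 10.75 and 10.56 after progesterone, against 11.04, 11.04 and 10.59 after oil. The arrays interleaved, and the change of -0.06 had an interval of -0.52 to 0.40. A second Sema5a probe set was at 9.0, 9.02 and 8.75 after progesterone, against 9.32, 9.27 and 9.20 after oil, which did not overlap (change -0.34, limma adjusted p = 0.104). Sema5b changed by 0.09. In class 6, whose members signal through A-type plexins, all 4 means were lower. Sema6d was at 9.23, 9.21 and 9.03 after progesterone, against 9.33, 9.35 and 9.35 after oil, a small gap (-0.19, SE 0.0921) with no overlap and a limma adjusted p of 0.262. Sema6a was at 7.07, 6.78 and 6.63 after progesterone, against 7.18, 7.20 and 7.24 after oil, also apart (-0.38, adjusted p = 0.102). Without progesterone replicate 1 its adjusted p was 0.0340. Sema6b and Sema6c changed by -0.01 and -0.22. Sema7a, the lipid-anchored ligand, was at 8.17, 7.63 and 7.62 after progesterone, against 7.58, 7.70 and 7.73 after oil, where 1 progesterone array stood above all others and the remaining 2 lay within the oil range.

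Nrp2 passed in 5 of 6 fits that each dropped an array, more than the other 3 called genes did. It encodes the neuropilin that binds Sema3f and Sema3g and also vascular endothelial growth factor C in lymphatic vessels. Nrp2 was at 7.86, 8.14 and 7.68 after progesterone, against 8.72, 8.87 and 8.64 after oil, without overlap. Its log2 change was -0.85 (SE 0.137, 1.80-fold lower, 95% interval -1.17 to -0.53, limma adjusted p = 0.0113). The call ended without oil replicate 2 (adjusted p = 0.0564). Of its 4 probe sets 2 passed, and all 4 had lower means after progesterone, with changes from -0.85 to -0.49. Nrp1, the neuropilin of Sema3a and of vascular endothelial growth factor A, was at 10.25, 10.21 and 10.18 after progesterone, against 9.96, 10.10 and 10.37 after oil. Its progesterone arrays lay within the oil range, its change was 0.07 (interval -0.21 to 0.35), and none of its 4 probe sets passed. Whether the changes of Nrp1 and Nrp2 differ was not tested.

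**Figure D3:**
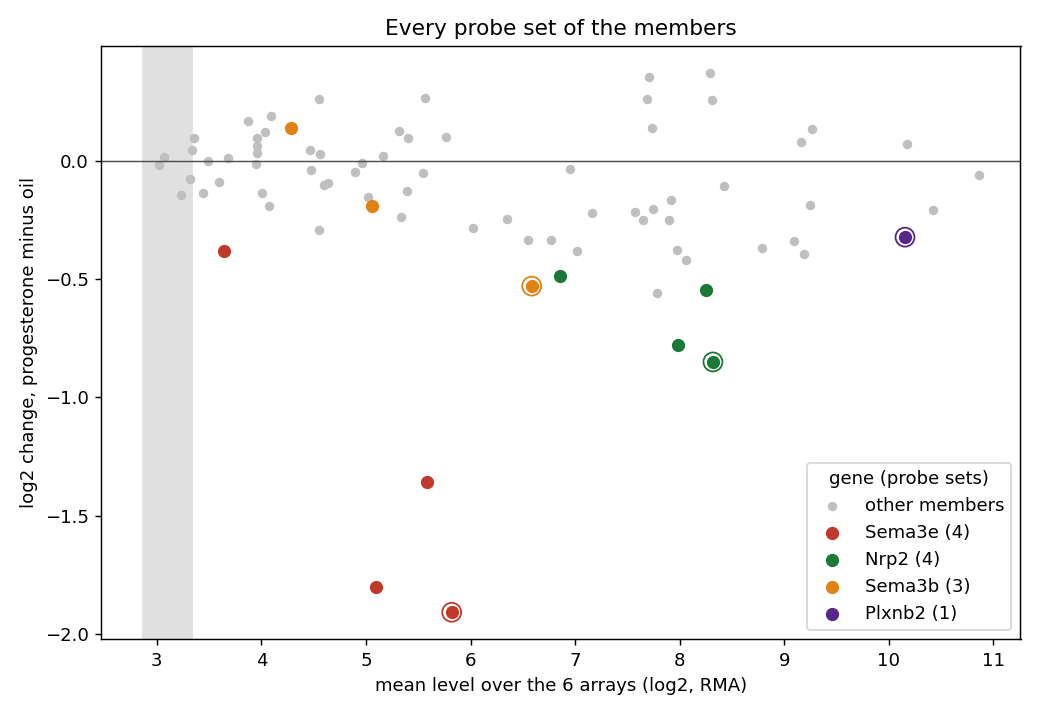
Log2 change, progesterone minus oil, of all 79 probe sets against their mean level over the 6 arrays (log2). Colours mark the probe sets of the 4 genes past the threshold, rings mark the probe set used for each, and the grey band spans the TrpnX controls. The 4 probe sets of Nrp2 and the 4 of Sema3e all lie below 0, and 1 of the 3 of Sema3b lies above 0.

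Among plexins, Plxnb2 was lower by a small but even amount. This receptor of Sema4c was at 10.01, 9.99 and 9.98 after progesterone, against 10.29, 10.35 and 10.31 after oil. Its spread after progesterone was the smallest of all members (SD 0.0153), and the log2 change was -0.32 (SE 0.0801, 1.25-fold lower, limma adjusted p = 0.0441). The call ended in each of the 6 fits that dropped an array (adjusted p between 0.0795 and 0.149) and with the replicate block (0.0586), with a change between -0.34 and -0.31 in those 6 fits. It has a single probe set. Plxnb1, the receptor of Sema4d, was at 8.77, 8.40 and 8.14 after progesterone, against 8.39, 8.13 and 8.02 after oil (change 0.26, limma adjusted p = 0.438). Its second probe set was at 8.49, 8.51 and 8.42 after progesterone, against 8.12, 7.99 and 8.20 after oil, with no overlap (change 0.37, adjusted p = 0.0591). Plxnb3, a receptor of Sema5a, changed by -0.24 with an interval of -0.70 to 0.22.

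All 4 A-type plexins, which carry the signals of class 3 ligands bound to neuropilins and of class 6 ligands, had lower means, and none passed (limma adjusted p from 0.256 to 0.790). Plxna2 was at 8.24, 7.80 and 7.50 after progesterone, against 8.62, 8.39 and 7.79 after oil. The groups overlapped, yet each progesterone array was below the oil array of its number, and with the replicate block its change of -0.42 passed (adjusted p = 0.0400, against 0.375 without it). Its 4 probe sets all had lower means, by 0.25 to 0.42. Plxna1 changed by -0.20 with arrays apart, Plxna3 by -0.22 and Plxna4 by -0.05. Plxnc1, the plexin of Sema7a and of myeloid cells, was at 5.03, 5.48 and 5.64 after progesterone, against 4.94, 5.05 and 5.78 after oil. It was highest on the 3 arrays with high S100a8, and its change was 0.13 (adjusted p = 0.826). The summed level of 5 macrophage markers (Cd68, Adgre1, Csf1r, Cd14 and Mrc1) was also highest on those arrays. It was 10.47, 11.22 and 11.77 after progesterone, against 10.31, 10.71 and 11.40 after oil (log2). The relation of Plxnc1 to these markers was not tested. Plxna4os1 averaged 3.40 after progesterone and 3.31 after oil, within or just above the control range.

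**Figure D4:**
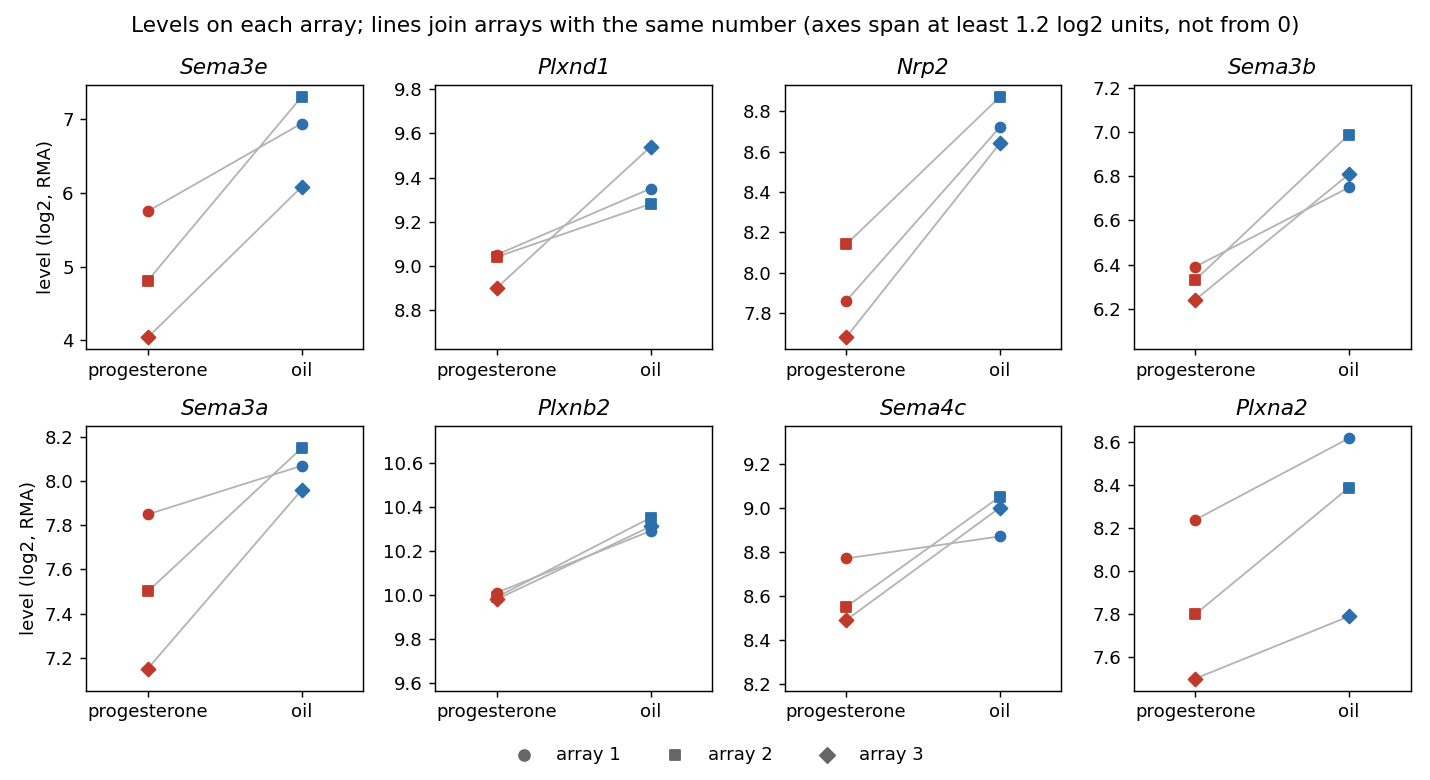
Levels of 8 genes on each array (log2, RMA), progesterone left and oil right, with lines that join arrays of the same number and a separate axis for each gene. All 8 are genes with a lower mean after progesterone, and members with a higher mean are not drawn. Every line runs from a lower progesterone value to a higher oil value. Except in Plxna2 the groups did not overlap, so any pairing of the arrays would give lines of this direction. In Sema3e, Nrp2, Sema3a and Plxna2 the arrays numbered 3 are the lowest of both groups.

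Set side by side, ligands and the receptors they are known to bind showed these log2 changes. Sema3e and Plxnd1 changed by -1.91 and -0.39, and Sema4c and Plxnb2 by -0.37 and -0.32. These 4 are among the 10 members whose progesterone arrays all lay below all oil arrays (31.2% of members, against 15.9% of all genes). Sema4d and Plxnb1 changed by 0.35 and 0.26, the 2 largest positive changes of the family, neither past the threshold. Sema3a and Nrp1 changed by -0.56 and 0.07, Sema3f and Nrp2 by -0.11 and -0.85, and Sema7a and Plxnc1 by 0.14 and 0.13. Relations between these genes were not tested.

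Some of these genes are made by endothelium, and the summed level of the endothelial marker list was lower beside them. None of its 6 genes (Pecam1, Cdh5, Tek, Emcn, Tie1 and Eng) passed in limma, their median log2 change was -0.30, and their summed level lay between 10.65 and 10.76 after progesterone and between 10.83 and 11.12 after oil (log2), without overlap. The lowest of them, Tie1, averaged 7.42 over all arrays. The 6 epithelial markers summed to between 12.62 and 13.37 after progesterone and between 13.38 and 13.58 after oil, with a median change of -0.34 and 0 genes past the threshold. The 3 measured lymphatic markers, of which Prox1 was close to background at 3.61, overlapped between groups (8.12 to 9.43 after progesterone, 7.86 to 8.93 after oil), as did the 5 measured nerve and Schwann cell markers (6.87 to 7.004 after progesterone, 6.90 to 7.02 after oil). Of 6 stromal markers 3 were called higher (Hoxa11, Hoxa10 and Hand2) and 0 lower, against 5.92% of all genes called higher. Vim (-0.53), Dcn (-0.33) and Pdgfra (-0.003) did not pass, and the summed levels of the 6 overlapped between groups. Adipocyte markers had the lowest median change of the 13 marker lists (-1.84), over 2 measured genes of 4 listed, Adipoq (-1.94, adjusted p = 0.113) and Fabp4 (-1.74, adjusted p = 0.114), neither past the threshold. Their summed level was 7.83, 8.94 and 6.39 after progesterone, against 9.74, 9.95 and 8.84 after oil. The groups overlapped, each progesterone array was below the oil array of its number, and the arrays numbered 3 were the lowest of both groups, as for Sema3e and Nrp2. The part of these markers in the changes of Nrp2, Plxnd1, Sema3e and Plxnb2 was not tested.

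Without the 3 arrays that carried S100a8, which leaves 1 progesterone and 2 oil arrays and assumes that the lone array varies like the others, Sema3e changed by -1.37, Nrp2 by -0.935, Sema3b by -0.48 and Plxnb2 by -0.31. None of the 32 genes passed in that fit in limma (0.171 was the lowest adjusted p). Without both arrays numbered 3, Sema3e (-1.84, adjusted p = 0.0382) and Nrp2 (-0.795, adjusted p = 0.0415) passed.

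Of 61 listed co-receptors and signalling partners of the family 59 were measured by a probe set with a single gene name. In limma 3 were higher, 4 were lower and 52 did not pass, or 11.9% called in either direction against 11.7% of all genes, with a median change of -0.05. Blocking on the replicate number gave 6 higher and 4 lower partners (16.9% in either direction, against 16.1% of all genes). The 3 that entered were Farp2, an exchange factor that acts with A-type plexins (0.70, adjusted p = 0.00738, against 0.0591 without the block), Nrcam, an adhesion molecule that associates with neuropilins (0.40, 0.0414 against 0.113), and the Nrp1 ligand Vegfa (0.41, 0.0489 against 0.192). Limk1, the kinase that inactivates cofilin downstream of plexins, was at 6.50, 6.75 and 6.81 after progesterone, against 5.58, 5.58 and 5.62 after oil (log2 change 1.09, 2.13-fold higher, limma adjusted p = 0.00263). The vascular growth factor Pgf, a neuropilin ligand, was higher by 1.43 (adjusted p = 0.0120). Adamts1, a protease known to release human SEMA3C from the matrix, was higher by 0.82 (adjusted p = 0.0148).

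Met, the receptor kinase that associates with B-type plexins, was at 7.55, 7.50 and 8.12 after progesterone, against 8.77, 9.05 and 9.17 after oil (log2 change -1.27, 2.42-fold lower, limma adjusted p = 0.00909). Its groups did not overlap. Vegfc, the growth factor that binds Nrp2, was lower by a log2 change of -0.68 (adjusted p = 0.0315). Dpysl2 and Dpysl3, the collapsin response mediators of Sema3a signalling, changed by -0.45 and -0.64 (adjusted p = 0.0242 and 0.0458). The calls of Limk1, Met and Pgf remained in all 6 fits that each dropped an array. That of Adamts1 ended without oil replicate 1 or 2. The call of Dpysl2 held without oil replicate 3 or progesterone replicate 3, that of Vegfc without oil replicate 1 and that of Dpysl3 without progesterone replicate 2, and each of these 3 ended in the other fits. For Met, Dpysl2, Dpysl3 and Vegfc, 1 of several probe sets passed.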

How the data were processed

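Expression was measured on 6 one-colour arrays with biotin-labelled cRNA. The deposited values are log2 expression of 45101 probe sets, and Partek 6.6 and RMA are named in the submitters' processing notes; other settings are not given in the sources used here. Detection calls were not used, so TrpnX control probe sets stand for background.

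The platform annotation supplied gene symbols: 34945 probe sets had 1 gene symbol, 932 several and 9160 none, and 64 were controls. All 32 members matched RefSeq (GRCm38.p6) by gene identifier, with 0 symbols changed. The members and lists were chosen with earlier results of these data known.

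The groups came from the sample titles and were compared in R 4.3.3 by limma 3.58.1 (linear model with empirical Bayes moderation, two-sided, no filter, no block), fitted on 18193 genes with Benjamini-Hochberg adjustment over all of them. The procedure was tested on simulated data. Values on each array are given for members past the threshold, for those with groups apart and at least 1.5-fold, and for the brightest probe set of each class. Those of Sema3a, Sema4d, Sema6a and Plxnb1 and of single further probe sets were chosen after their values were seen. Partners past the threshold are named.

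Deviations from the group means correlated at 0.523, 0.141 and 0.636 between same-numbered arrays. All exceed 0.1 and so met a fixed rule for pairing the samples, although the labels do not say what a number shares. Progesterone replicate 1 with oil replicate 2 also exceeded 0.1 (0.322), and by more than the arrays numbered 2 did. The other differently numbered pairs lay between -0.598 and -0.0545. The block results therefore rest on a pairing that these correlations do not settle.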

Additional observations from a re-analysis of the deposited data

How the results depend on the processing

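The count of 4 lower genes was between 4 and 5 after a second quantile normalization or median centring, with 32 added before log2, with filters on the lowest 25% or 50% of genes, with the mean of probe sets and with trended or robust eBayes. The genes counted were not the same each time. Nrp2 and Plxnb2 were counted in all of these settings, Plxnd1 entered in several of them, and Sema3b left with the mean of probe sets. The filter on the lowest 50% removes Sema3b and Sema3e themselves, and Sema4c entered there (-0.37, limma adjusted p = 0.0395). With the replicate block the count was 5, or 15.6% of members against 16.1% of all genes called in either direction. Plxna2 and Sema3a entered and Plxnb2 left. Under the block 10 partners passed in place of 7, with Farp2, Nrcam and Vegfa entering as higher. When every probe set was tested on its own, 3 members had at least 1 probe set called lower (Nrp2, Sema3b and Sema3e). Plxnb2 lost its call there (limma adjusted p = 0.0608). The count was 2 with both arrays numbered 3 left out, 2 with a minimum of 1.5-fold, 0 at an adjusted p of 0.01 and 0 without the 3 arrays with the highest S100a8, a setting chosen after seeing the data. Leaving out 1 array gave 0 (without oil replicate 2) to 6 (without progesterone replicate 1) lower genes, and 3 to 7 partners. Apart from the block, the share of all genes called under each of these settings is not given, so the counts are not set against it. The count of higher members was 0 in limma under each of these settings. Partners past the threshold numbered 4 with the mean of probe sets, 2 at an adjusted p of 0.01 and 0 without the S100a8 arrays. A further Sema3b probe set turned its direction (0.14, adjusted p = 0.701). Sema3e lost its call with the offset (-1.18, adjusted p = 0.0602) and with robust eBayes (0.0828). The causes were not tested. Signal close to background limits Sema3d, Plxna4os1, the dim probe sets and the size of the Sema3e change.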
